A study of Homo sapiens with 6 samples.

Results

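The chromatin around the 5 genes of the C/EBP transcription factor family, CEBPA, CEBPB, CEBPD, CEBPE and CEBPG, was examined in leukemia cells given AI-10-49 or DMSO. Members were all listed peaks that overlapped 1 of 4 hg19 windows by at least 1 bp, whatever their height. The windows were 33.70 to 33.92 Mb of chromosome 19 (CEBPA and CEBPG), 48.76 to 48.95 Mb of chromosome 20 (CEBPB), 48.55 to 48.75 Mb of chromosome 8 (CEBPD) and 23.54 to 23.64 Mb of chromosome 14 (CEBPE). They held 112 of the 145457 peaks in 4 lists. For RUNX1 these were 3 of 1701 sites in DMSO and 11 of 10319 in AI-10-49, and for acetylated histone H3 they were 50 of 67087 regions in DMSO and 48 of 66350 in AI-10-49.

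All samples came from ME-1, an established human leukemia line with inv(16), the chromosome inversion whose fusion gene CBFB-MYH11 encodes CBFβ-SMMHC. The compound AI-10-49 blocks the contact between this fusion protein and RUNX1, which regulates transcription during blood formation. Cells received AI-10-49 at 1 µM or DMSO alone for 6 h, so both groups carried the fusion gene. Immunoprecipitation was directed at RUNX1 or at H3K27ac, a histone mark (acetylated lysine 27 of H3) carried by active promoters and enhancers. Each antibody and condition had 1 library, and the 2 inputs were not analysed here. Without replicates there was no test between conditions.

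C/EBP proteins are leucine zipper factors that bind DNA as dimers, named for the CCAAT box and for enhancers. C/EBPα (CEBPA) commits myeloid progenitors to the granulocyte path, is often mutated in acute myeloid leukemia, and depends in myeloid cells on an enhancer downstream of its gene that binds RUNX1 among other factors. C/EBPβ (CEBPB) acts in emergency granulopoiesis and in macrophages, C/EBPδ (CEBPD) is an acute-phase and differentiation factor, C/EBPε (CEBPE) controls late granulocyte maturation, and C/EBPγ (CEBPG) lacks a classical activation domain and acts mainly through its dimers.

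Levels are given as fragments over the peak summit per 1000000 reads (per M), recovered from the authors' fold enrichment and −log10 p, with exact 95% Poisson intervals in brackets. Ratios are AI-10-49 over DMSO with an exact 95% interval. These intervals cover counting error only, not the spread between cultures. The RUNX1 libraries held an estimated 33.8 M reads in DMSO and 31.5 M in AI-10-49, and the H3K27ac libraries 35.7 M and 37.0 M. These totals were recovered from the peak lists under the assumptions given below, and the levels and ratios rest on them. Fragments were estimated to be longer in AI-10-49, which by itself would give a ratio of 1.13 for RUNX1 and 1.09 for H3K27ac. Fold enrichments and −log10 q values are the authors' and describe a peak within its own list. A site missing from a list was below the caller's threshold and not shown to be empty: the weakest listed RUNX1 site of DMSO held 11 fragments at its summit.

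Peaks could not be placed on gene models, because the gene and sequence tables at hand were of another build, GRCh38.p14. By gene order in that table, SLC7A10 and PEPD flank the pair CEBPA and CEBPG. PEDS1 and PTPN1 are the protein-coding neighbours of CEBPB, SPIDR and PRKDC those of CEBPD, and CIROP and SLC7A8 those of CEBPE, with C14orf119 and ACIN1 beyond CIROP. A peak in a window may therefore belong to a neighbour. Only for CEBPA did the choice of members carry a position, an enhancer about 42 kb downstream near 33.75 Mb, which puts CEBPA itself near 33.792 Mb. The identity of the line was not checked against marker genes, for the same reason.

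The 250 bases upstream of the annotated starts are shown for CEBPA, CEBPG and CEBPE, whose windows had RUNX1 sites with DMSO alone, so that the letters can be read for RUNX motifs. Sequences are from RefSeq (GRCh38.p14), 5′ to 3′ on the strand of the gene. Capitals mark a CCAAT box on either strand, which reads ATTGG when it lies on the other one.
CEBPA, chr19:33302535-33302784, minus strand: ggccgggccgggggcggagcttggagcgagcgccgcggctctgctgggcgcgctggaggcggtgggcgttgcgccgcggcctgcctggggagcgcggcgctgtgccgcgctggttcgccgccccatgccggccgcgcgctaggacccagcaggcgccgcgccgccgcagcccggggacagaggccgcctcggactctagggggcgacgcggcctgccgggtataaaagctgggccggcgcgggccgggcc
CEBPG, chr19:33373459-33373708, plus strand: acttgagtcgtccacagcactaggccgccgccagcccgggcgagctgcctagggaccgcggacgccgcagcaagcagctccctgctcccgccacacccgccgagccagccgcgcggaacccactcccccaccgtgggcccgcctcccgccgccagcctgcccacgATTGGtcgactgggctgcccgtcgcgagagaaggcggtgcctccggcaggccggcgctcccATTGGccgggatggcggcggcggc
CEBPE, chr14:23119256-23119505, minus strand: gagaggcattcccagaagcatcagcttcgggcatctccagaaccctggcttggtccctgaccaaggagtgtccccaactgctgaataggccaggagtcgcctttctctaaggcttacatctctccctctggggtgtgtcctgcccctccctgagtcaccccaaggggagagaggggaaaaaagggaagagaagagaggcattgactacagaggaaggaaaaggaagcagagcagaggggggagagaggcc

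None of the 6 upstream stretches annotated for 4 family genes (2 each for CEBPB and CEBPG) held the RUNX core TGTGGT on either strand, a motif present in 11% of all 35116 stretches of that length. No stretch for CEBPD was in the table. CCAAT, on either strand, was in 2 of the 6 stretches and in 32.0% of all. These were the CEBPG stretch shown, where the boxes' first bases were 85 and 24 bases before the start, and 1 of the 2 for CEBPB. C and G made up 81.2% of the bases upstream of CEBPA and 76.0% of those in the CEBPG stretch shown, but 57.2% upstream of CEBPE, against a median of 58.0%. These are descriptions of the letters and say nothing of binding elsewhere in the windows.

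The strongest RUNX1 sites of the CEBPA window lay at the downstream enhancer, where the DMSO and AI-10-49 lists differed in opposite ways for RUNX1 and for H3K27ac. The site at chr19:33751375-33751980 had 71 summit fragments in DMSO, or 2.1 per M (1.64 to 2.65), and a fold enrichment of 10.2. In AI-10-49 the overlapping site chr19:33751438-33752184 had 181 fragments, or 5.74 per M (4.94 to 6.64), and a fold enrichment of 19.9. The ratio was 2.73 (2.07 to 3.65), and the intervals of the levels did not overlap. By −log10 q this site ranked 45 of 1701 in DMSO and 100 of 10319 in AI-10-49, so it stood near the top of both lists. The summits were 190 bp apart, 1.67 and 1.86 kb from the enhancer position. Among the 1551 DMSO sites in both lists the median ratio was 2.1 (quartiles 1.52 and 2.97), and the enhancer's ratio lay at percentile 69.6 of these.

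The H3K27ac region over the same enhancer went the other way. In DMSO, chr19:33750699-33753236 held 166 summit fragments, 4.65 per M (3.97 to 5.41). In AI-10-49, chr19:33750591-33753164 held 85 fragments, 2.30 per M (1.84 to 2.84). The ratio was 0.494 (0.376 to 0.646), the lowest among the 39 regions of the windows that were in both lists. Its extent was 2.54 kb in DMSO and 2.57 kb in AI-10-49, and the summits were 2 bp apart. The authors' fold enrichment was 26.5 in DMSO and 8.05 in AI-10-49, a wider gap than in fragments, and the local background was 5.25 fragments in DMSO and 9.39 in AI-10-49. Genome-wide the ratio of this region was at percentile 9.49 of 47607 shared regions. Among the 11022 shared regions with at least 3 fragments per M in DMSO the median was 0.654, and the enhancer was at percentile 17.1 of those. That limit was chosen after seeing the values, and since it picks regions by the denominator of the ratio, it lowers the ratios of the class by construction.

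**Figure D1:**
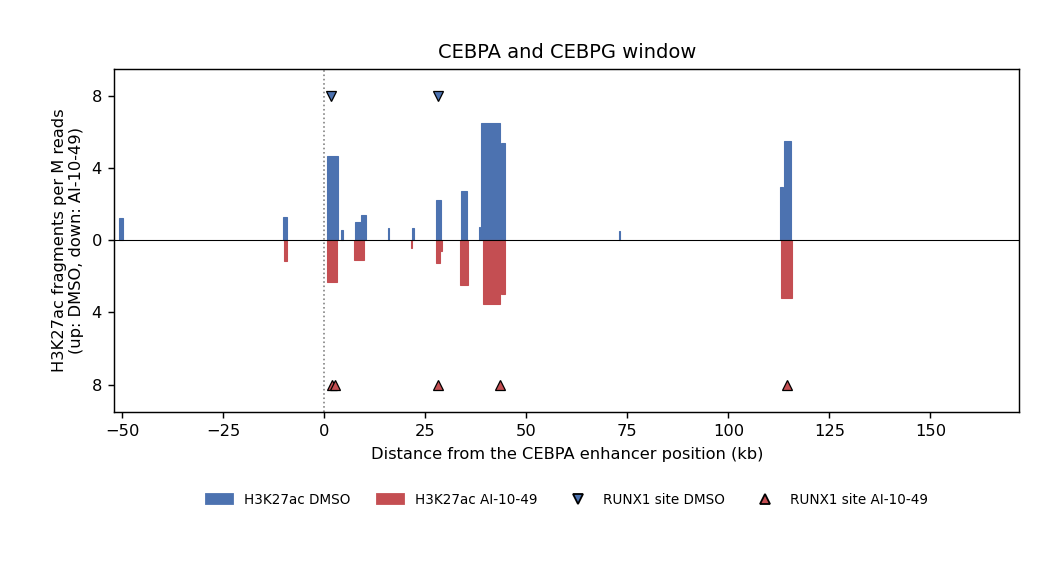
H3K27ac regions of the CEBPA and CEBPG window by distance from the enhancer position (kb, x axis), with bar height for summit fragments per M reads (upwards for DMSO, downwards for AI-10-49) and triangles for RUNX1 summits at a fixed height. The enhancer region just right of 0 kb, with its H3K27ac summit at 1.41 kb, had 4.65 per M in DMSO and 2.30 in AI-10-49. It carried a RUNX1 site in both lists.

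A second, weak RUNX1 site of the enhancer was listed in AI-10-49 only, at chr19:33752522-33752721, with 19 fragments, 0.603 per M (0.363 to 0.941). It lay inside the same acetylated region of both lists. Another site in both lists, chr19:33777958-33778269 in DMSO and chr19:33777920-33778225 in AI-10-49, lay between the enhancer and the gene, 28.0 kb from the enhancer position. It had 29 fragments or 0.859 per M (0.575 to 1.23) in DMSO, and 58 fragments or 1.84 per M (1.4 to 2.38) in AI-10-49. The ratio was 2.14 (1.35 to 3.47). Its fold enrichment was 3.35 in DMSO and 10.3 in AI-10-49. Both shared sites of the windows thus had ratios over 1.5, as had 76.0% of shared sites genome-wide. The H3K27ac region around this second site, chr19:33777559-33778927, had 2.24 per M in DMSO, 1.27 per M in AI-10-49 and a ratio of 0.567 (0.387 to 0.823). In fold enrichment it was 7.71 and 8.27, so the direction there depended on the unit.

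Near the position implied for CEBPA, RUNX1 was listed in AI-10-49 only and weakly. The site chr19:33793455-33793646 had 19 fragments, 0.603 per M, and a −log10 q of 4.37, rank 9669 of 10319. Its summit lay 1.49 kb from the implied position, in a gap between neighbouring acetylated regions that was 169 bp wide in DMSO and 238 bp in AI-10-49. The region on its lower-coordinate side, chr19:33788691-33793451, was the widest of the window at 4.76 kb. It held 232 fragments or 6.50 per M (5.69 to 7.39) in DMSO, and 130 fragments or 3.51 per M (2.94 to 4.17) in AI-10-49. The ratio was 0.541 (0.433 to 0.673), with summits 974 bp apart, while the fold enrichments were 17.1 and 16.3. The region on the other side, chr19:33793621-33794607, had 5.38 per M (4.65 to 6.20) and 2.97 per M (2.44 to 3.58), a ratio of 0.553 (0.433 to 0.702), and fold enrichments of 26.2 and 16.6. The acetylated region between the second RUNX1 site and these, chr19:33783713-33785317, held no RUNX1 site and had 2.75 and 2.46 per M, with an interval of the ratio that included 1 (0.666 to 1.20).

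The far part of the window held a strong acetylated block 115 kb from the enhancer position. It was listed as 2 regions in DMSO, chr19:33862864-33863543 with 2.97 per M and chr19:33863730-33865504 with 5.52 per M (4.78 to 6.35), and as 1 region in AI-10-49, chr19:33862913-33865654 with 3.22 per M (2.67 to 3.85). Summits of the stronger DMSO region and the AI-10-49 region were 21 bp apart, and their ratio was 0.583 (0.460 to 0.736). The DMSO region had a fold enrichment of 32.5 and the highest −log10 q of the window (218). A RUNX1 site was listed here in AI-10-49 only, chr19:33864282-33864754, with 35 fragments, 1.11 per M (0.773 to 1.54), and a fold enrichment of 7.90. Its summit was inside the acetylated regions of both conditions. The block lies on the CEBPG side of CEBPA, with its stronger DMSO summit 72.8 kb from the position implied for CEBPA. The upstream stretches shown for CEBPA and CEBPG are a similar distance apart in GRCh38.p14. The block may thus lie near the start of CEBPG, but positions were not transferred between builds and it was not assigned to that gene.

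Across the window of CEBPA and CEBPG, the 16 DMSO regions of H3K27ac covered 19.6 kb, and the 10 of AI-10-49 covered 17.2 kb. That ratio of covered length was 0.881, near the 0.908 of the whole genome. Of the 10 DMSO regions in both lists, 8 had a ratio below 1, where 64.4% did genome-wide. The ratios above 1 were those of chr19:33757688-33759048 (1.07) and chr19:33862864-33863543 (1.08). In both the AI-10-49 summit lay outside the DMSO interval, so these ratios do not compare the same place. The interval lay wholly below 1 for 5 of the 10 and above 1 for none, counts that were not made genome-wide. Ratios under 1/1.5 occurred at 5 of the 10, against 29.1% genome-wide. All 4 regions with at least 3 per M in DMSO were among them, where 52.8% of such regions were genome-wide, with a median ratio of 0.547. By fold enrichment the ratios of these 4 ran from 0.304 to 0.957. DMSO-only regions numbered 6 of 16 (29.0% genome-wide), and of the 13 DMSO regions that reached a −log10 q of 5 they were 3, where the genome-wide share was 19.8%. The clearest, chr19:33699206-33700187, crossed the window's edge with 44 fragments and lay 30.1 kb from the nearest AI-10-49 region. The others were chr19:33788247-33788506, 0.63 kb from an AI-10-49 region, and chr19:33823030-33823237, 28.4 kb from one. The only AI-10-49-only region, with 15 fragments, was 0.121 kb from a DMSO region.

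The CEBPB window had no RUNX1 site in DMSO and 5 in AI-10-49, all on 1 side of the strongest acetylated region. Most of the window's length lies on that side. The lack of a DMSO site depended on the window's edge at 48.95 Mb. Just past this edge lay the DMSO site chr20:48955200-48955714. At double length this window counted 3 for DMSO and 13 for AI-10-49. With the 3 AI-10-49-only sites of the CEBPA window and the 1 of the CEBPE window, the 5 listed here made up 9 of 11 members. This was close to the genome-wide share of 85.1%. At chr20:48843175-48843418 the level was 1.21 per M (0.853 to 1.65), with 38 fragments. At chr20:48887174-48887447 it was 1.84 per M (1.4 to 2.38), with 58 fragments, and at chr20:48891471-48891788 it was 1.75 per M (1.31 to 2.27), with 55 fragments. The sites chr20:48914109-48914355 and chr20:48925163-48925441 had 45 fragments each, 1.43 per M (1.04 to 1.91). The 5 levels had overlapping intervals, so no site stood out. Their fold enrichments ran from 6.55 to 9.71, and by −log10 q they ranked between 2252 and 4512 of 10319. They were spread over 82.0 kb, from 35.8 to 118 kb on the higher-coordinate side of the strongest acetylated summit.

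**Figure D2:**
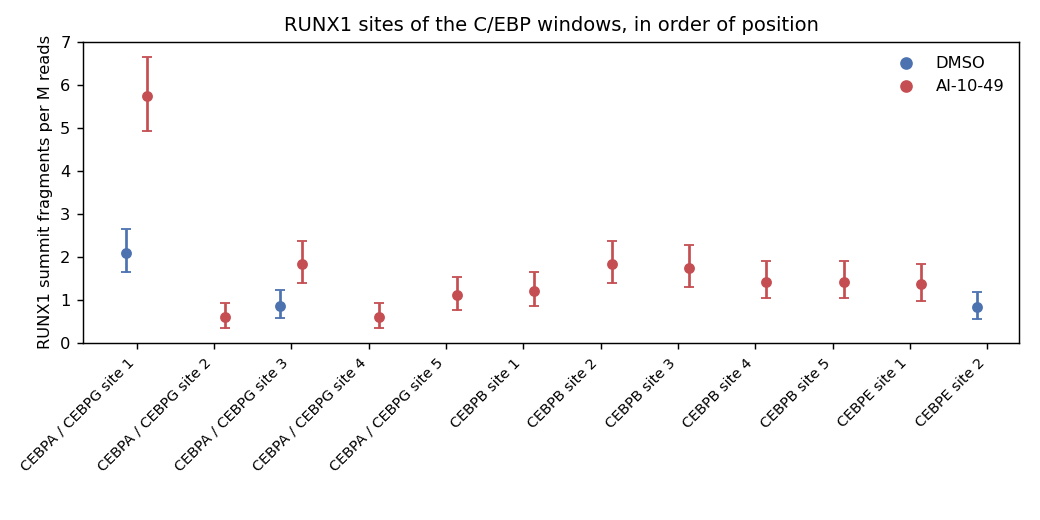
RUNX1 summit fragments per M reads (y axis) at each site of the windows in order of position (x axis), in DMSO and AI-10-49, with bars for the exact 95% Poisson interval and no point where a list held no site. The CEBPA enhancer, site 1, had 2.1 in DMSO against 5.74 in AI-10-49. No other site was above 1.84.

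H3K27ac regions that overlapped these sites held less than 3 per M in both conditions. The highest in DMSO was the wide region chr20:48889887-48892717, at percentile 80.1 of all DMSO regions by level, with 2.49 per M (2.0 to 3.07) in DMSO, 1.57 per M in AI-10-49 and a ratio of 0.629 (0.444 to 0.885). The site at chr20:48887174-48887447 touched a region with 1.04 per M in DMSO and 0.811 in AI-10-49. The summit of the site at chr20:48843175-48843418 lay 4.51 kb from the edge of the nearest DMSO region. This site overlapped an AI-10-49-only region, chr20:48843396-48843672, with 25 fragments and a −log10 q of 2.14. The site at chr20:48914109-48914355 overlapped no region of either list. A DMSO-only region with 27 fragments, chr20:48913815-48914105, ended just before this site began, 110 bp from the site's summit. The summit of the last site lay between neighbouring regions 157 bp apart in DMSO and 191 bp apart in AI-10-49. Beside it, chr20:48925384-48925641 had 1.2 per M in DMSO and 1.78 per M in AI-10-49. The ratio was 1.48, and its interval just included 1 (0.994 to 2.23). The fold enrichments were 3.49 and 8.03.

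The strongest acetylated region of the CEBPB window, chr20:48806937-48809682 in DMSO and chr20:48806801-48810523 in AI-10-49, held no RUNX1 site in either list. It had 243 fragments or 6.81 per M (5.98 to 7.72) in DMSO, and 180 fragments or 4.87 per M (4.18 to 5.63) in AI-10-49. The ratio was 0.715 (0.586 to 0.870), at percentile 63.4 of shared regions with at least 3 per M in DMSO, the summits were 943 bp apart, and the region was wider in AI-10-49 (3.72 kb) than in DMSO (2.75 kb). Regions at the lower end of the window, towards PEDS1 by gene order, also had high levels and no RUNX1 site: chr20:48762304-48764347 had 6.36 and 4.49 per M, chr20:48769175-48770269 had 6.25 and 4.62, and chr20:48770373-48770872 had 4.65 and 2.65. Their ratios were 0.706, 0.740 and 0.570, each with an interval below 1. By fold enrichment the ratios were nearer to 1, at 0.828, 0.933 and 0.99, so the last difference was not seen in that unit. Of the 16 shared DMSO regions of this window 2 had a ratio under 1/1.5 (29.1% genome-wide) and 1 a ratio over 1.5 (12.8%), and the median was 0.904. The 19 DMSO regions covered 16.4 kb, and the 21 of AI-10-49 covered 20.8 kb, a ratio of 1.27 against 0.908 genome-wide. Of the regions that reached a −log10 q of 5, those in 1 list only were 2 of 14 in DMSO (19.8% genome-wide) and 2 of 16 in AI-10-49 (10.4%). In DMSO they were chr20:48889419-48889837 and the one beside a RUNX1 site, and in AI-10-49 chr20:48776071-48776363 and chr20:48908520-48909316. The last was the clearest, with 47 fragments, 4.5 kb from any DMSO region.

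In the CEBPE window each list held 1 RUNX1 site, at different places. The DMSO site, chr14:23582105-23582281, had 28 fragments, 0.829 per M (0.551 to 1.20), a fold enrichment of 4.16 and rank 1239 of 1701. It was the only DMSO site of the windows without a partner in AI-10-49, where 8.82% of DMSO sites had none genome-wide. It lay in the widest acetylated region of all windows, chr14:23580107-23585388 (5.28 kb). In AI-10-49 that region was listed in 3 pieces, and the position of the DMSO RUNX1 summit was 4 bp outside the strongest of them, chr14:23582171-23585694. The H3K27ac summit itself was at 3.28 per M (2.71 to 3.93) in DMSO and 3.11 per M (2.57 to 3.73) in AI-10-49, 18 bp apart, with a ratio whose interval included 1 (0.727 to 1.24), while the fold enrichments were 16.6 and 9.64.

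The AI-10-49 site of the window, chr14:23564339-23564732, had 43 fragments, 1.36 per M (0.987 to 1.84), and lay 18.2 kb from the summit of that wide region. Its own summit was in a gap of 57 bp (DMSO) or 175 bp (AI-10-49) between the 2 acetylated regions with the highest −log10 q of the window. The first, chr14:23563034-23564532, had the highest H3K27ac level of any member, 7.42 per M (6.56 to 8.37) in DMSO and 6.16 per M (5.39 to 7.02) in AI-10-49, with a ratio of 0.830 (0.692 to 0.995). Its fold enrichments were 16.9 and 32.9, the opposite direction, with a local background of 14.71 fragments in DMSO and 5.63 in AI-10-49. The second, chr14:23564590-23565899, had 4.82 and 3.84 per M, and fold enrichments of 23.5 and 13.4. By gene order CIROP, C14orf119 and ACIN1 lie on the lower-coordinate side of CEBPE, and the site was not assigned to any gene.

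The remaining strong region of the CEBPE window, chr14:23587326-23590139, had 3.87 per M (3.25 to 4.57) in DMSO. In AI-10-49 a single region, chr14:23586643-23590124, covered it together with 2 lower DMSO regions before it, with 1.97 per M and a summit 957 bp away. The ratio was 0.510 (0.379 to 0.683), and fold enrichments were 18.9 and 10.7. Those 2 regions, with 0.757 and 0.869 per M in DMSO, were paired with this same AI-10-49 summit, which lies outside both, so their ratios of 2.61 and 2.27 do not compare the same place. AI-10-49-only regions numbered 4 of 13 here (21.0% genome-wide), and there were no DMSO-only regions. Of the 10 AI-10-49 regions that reached a −log10 q of 5, 2 were in that list only (10.4% genome-wide). Those 2 were chr14:23556148-23556395, 6.64 kb from any DMSO region, and chr14:23585971-23586425, 0.134 kb from one. Of the 8 shared regions 1 had a ratio under 1/1.5 (29.1% genome-wide) and 3 had ratios over 1.5 (12.8%), all 3 of them below 1 per M in DMSO. H3K27ac covered 14.9 kb with DMSO and 18.4 kb with the compound, a ratio of 1.24 against 0.908 genome-wide.

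**Figure D3:**
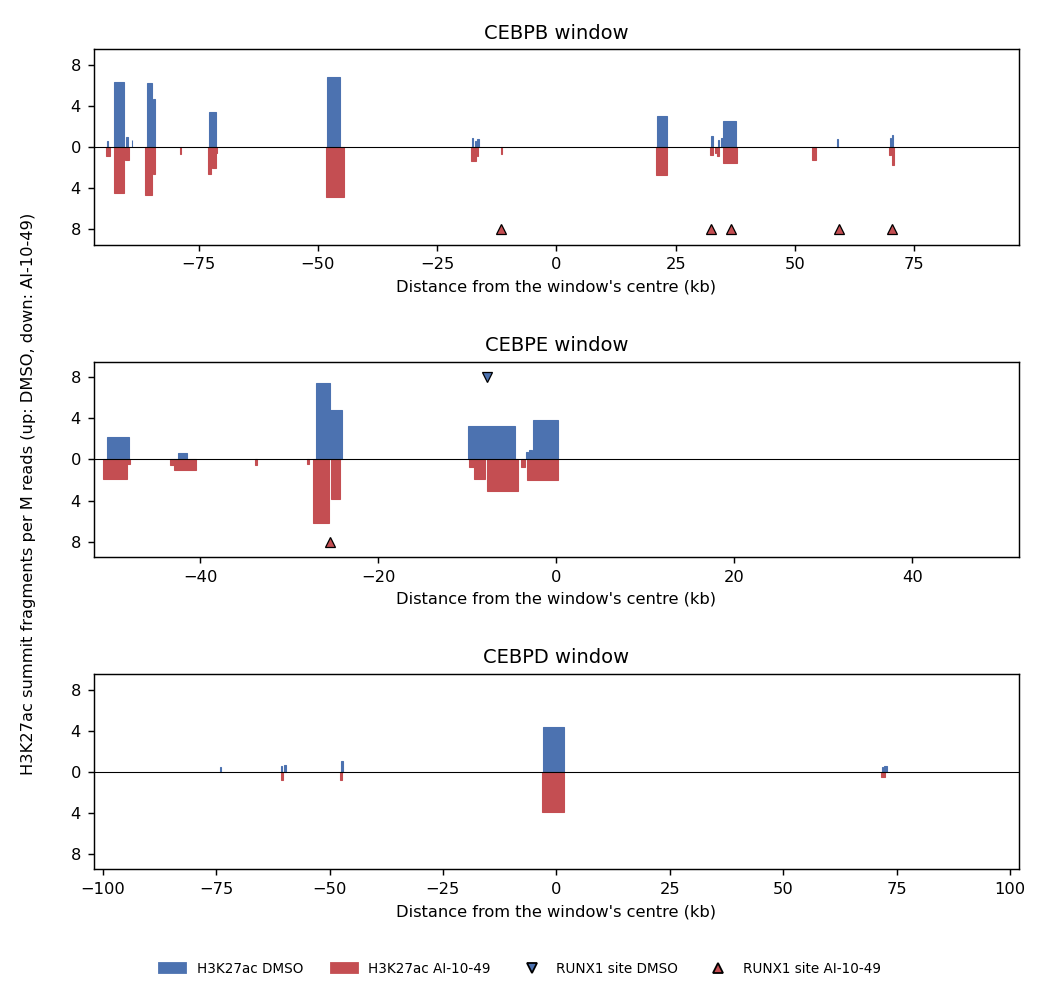
H3K27ac regions of the CEBPB, CEBPE and CEBPD windows by distance from each window's centre (kb, x axis), with bar height for summit fragments per M reads (upwards for DMSO, downwards for AI-10-49) and triangles for RUNX1 summits at a fixed height. The 5 CEBPB triangles are all from AI-10-49, CEBPE has 1 in each condition, and CEBPD has none.

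The CEBPD window held no RUNX1 site in either list. The nearest to its main acetylated region was 138 kb away in AI-10-49, and 1569 kb away in DMSO. That region, chr8:48647053-48651645 in DMSO and chr8:48646786-48651645 in AI-10-49, was wide (4.59 and 4.86 kb). It had 157 fragments or 4.4 per M (3.74 to 5.14) in DMSO, and 145 fragments or 3.92 per M (3.31 to 4.61) in AI-10-49. The ratio was 0.891 with an interval that included 1 (0.706 to 1.12), at percentile 89.7 of shared regions with at least 3 per M in DMSO, and the fold enrichments were 10.03 and 10.9. The other regions of the window were lower, at 0.476 to 1.01 per M in DMSO. All 5 shared regions had an interval that included 1, a count that was not made genome-wide. Next in −log10 q was chr8:48602483-48602867, with 1.01 per M in DMSO and 0.757 in AI-10-49. The region chr8:48589250-48589552 had 0.532 and 0.838 per M, the only ratio over 1.5 among the 5 (12.8% genome-wide). Its AI-10-49 summit lay outside the DMSO interval, and the fold enrichments ran the other way, at 3.68 and 3.44. Its neighbour chr8:48589996-48590435 was listed in DMSO only, with 24 fragments.

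**Figure D4:**
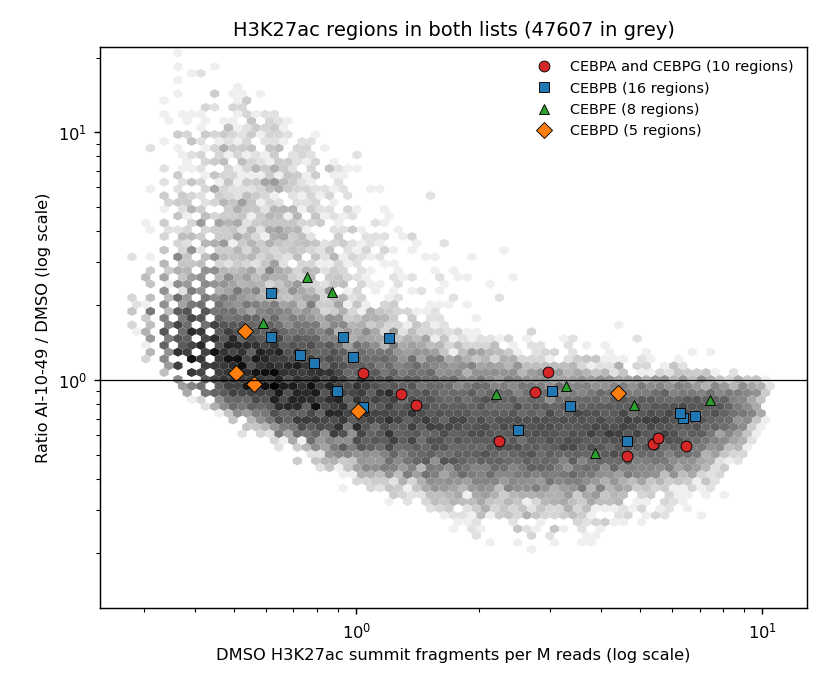
Ratio of H3K27ac summit fragments, AI-10-49 over DMSO (y axis, log scale), against the DMSO level in fragments per M reads (x axis, log scale), for 47607 DMSO regions in both lists (grey, darker where more lie) and the 39 of the C/EBP windows. The 4 highest regions of the CEBPA and CEBPG window (red circles at 4.65 to 6.50 per M) had ratios of 0.494 to 0.583, and that of CEBPD (orange) had 0.891.

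Ratios of the acetylated regions with at least 3 per M in DMSO overlapped between the windows of CEBPA and CEBPG, CEBPB and CEBPE. The CEBPA and CEBPG window had 4 of them, with ratios from 0.494 to 0.583. The CEBPB window had 6, from 0.570 to 0.902, and the CEBPE window 4, from 0.510 to 0.948, while the single one of CEBPD had 0.891. All 15 were below 1, and 6 were under 1/1.5, where 52.8% of such regions were genome-wide. By fold enrichment 3 of the 15 were above 1, 1 each in the CEBPB, CEBPD and CEBPE windows. In that unit the ratios were 0.304 to 0.957 in the CEBPA and CEBPG window, 0.514 to 1.05 for CEBPB and 0.564 to 1.95 for CEBPE. Ratios over 1.5 were found at 0 of the 15, as at 0.209% of such regions genome-wide. Of all 39 shared regions, 12 had an interval below 1, 24 an interval that included 1, and 3 an interval above 1. In each of those 3 the AI-10-49 summit lay outside the DMSO interval. Such intervals were not counted over all shared regions, so these counts have no genome-wide share beside them. Over all 39 the median ratio was 0.891, against 0.838 genome-wide.

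Most RUNX1 sites of the windows overlapped acetylated regions, as did most sites genome-wide. All 3 DMSO sites and 9 of the 11 AI-10-49 sites overlapped an H3K27ac region of their own condition (81.8% and 86.1% genome-wide), and 9 of 11 has an exact Clopper-Pearson interval of 48.2% to 97.7%. That interval takes the sites as independent, which neighbouring sites of 1 library need not be, and it does not cover the spread between cultures. By summit, 3 of 3 and 6 of 11 were inside (69.4% and 68.4%). Of the 9 sites in AI-10-49 only, 7 overlapped a region listed in DMSO and 1, which began just past the end of a DMSO region, overlapped none of either list. Neither count has a genome-wide share beside it, so neither can be called particular to these windows. Summits in a gap of up to 500 bp in both H3K27ac lists were found at 3 of 11, 1 each in the CEBPA, CEBPB and CEBPE windows, where 5.71% of AI-10-49 sites had such a position genome-wide. The limit of 500 bp was chosen after these sites were seen. Per 100 DMSO H3K27ac regions, the number of RUNX1 sites was 6 (DMSO) and 22 (AI-10-49) in the windows, and 2.54 and 15.4 over the genome.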

How the data were processed

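ChIP-seq peak lists of RUNX1 and H3K27ac in ME-1 cells (4 libraries) were used, and groups came from the sample titles. Per the submitters' processing notes, MACS2 2.1.0, Picard 1.96, SAMtools 1.3, Bowtie2 2.1.0 and CASAVA 1.4 were used with build hg19; no roles are stated, nor which input served for which call. Each deposited list gives the fold enrichment (a ratio at the summit over the local background), −log10 p and −log10 q per peak. The deposited score was not used.

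Summit fragments and read totals were recovered by solving the MACS2 Poisson score for whole fragments. ChIP libraries were taken as scaled down to their inputs, except RUNX1 DMSO, whose scale was 1. In every list 100% of peaks were solved to within 0.003 of −log10 p, and at other scales 1.67% to 2.67% (medians). Totals assume a genome size of 2700000000 bp and the shortest peak (149 to 210 bp) as fragment length. On simulated peaks for the 4 lists (1701 or 3000 each) 100% of fragment numbers were exact, and 0 of 729 overlaps differed from bedtools 2.31.1. The simulated peaks were made with the same formula that was solved. They check the solving only, not the assumed genome size, fragment length or read totals.

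An overlap of 1 bp made peaks shared, and the partner with most fragments was taken. No test was made. The members and lists were chosen with earlier results of these data known. Named were all RUNX1 sites, the 3 H3K27ac regions with the highest −log10 q and the widest per window and list, those at the enhancer position, and regions of 1 list with −log10 q of at least 5; other regions named were chosen after their values were seen. Python 3.11.15, numpy 2.4.6, pandas 2.3.3, scipy 1.17.1 and matplotlib 3.10.9 were used.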

Additional observations from a re-analysis of the deposited data

How the results depend on the processing

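Of 199 alternative values 138 stayed close (counts and medians within 1.5 times, single ratios inside their counting interval), 59 moved and 2 reversed with an interval that excluded 1. Over the 4 windows, RUNX1 sites in DMSO (3) came to 1 with −log10 q of at least 10 and to 7 in windows of double length. In AI-10-49 (11) they came to 6 in the central part of the windows (50% of the length) and to 24 in windows of double length. H3K27ac regions in DMSO (50) and AI-10-49 (48) came to 25 and 26 with −log10 q of at least 10, to 28 and 25 in the central part and to 90 and 98 in windows of double length. These changes follow from the smaller or larger windows and the stricter threshold by construction. With 50% of both intervals required, 23 regions of each list were shared, in place of 39 (DMSO) and 38 (AI-10-49).

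The ratio of fold enrichments lay on the other side of 1 from the fragment ratio at 9 of the 39 H3K27ac regions. At 7 of these the counting interval of the fragment ratio included 1; the other 2 were chr19:33777559-33778927 (1.07) and chr14:23563034-23564532 (1.95). It lowered that of the CEBPA enhancer to 0.304. The cause was not tested. Genes and motifs at the peaks were not analysed here, for want of hg19 sequence and annotation. No paired analysis was possible because neither antibody had more than 1 library in a condition.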
